A study of Rattus norvegicus with 20 samples.

Results

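The serotonin (5-HT) receptors, the main targets of lysergic acid diethylamide (LSD) among them, were described here as a group of 10 genes, chosen by name: Htr1a, Htr1b, Htr1d, Htr1f, Htr2a, Htr2c, Htr3a, Htr4, Htr5a and Htr7. They are 10 of the 31038 named genes of the count matrix. Of the 10, 9 passed the filter on low counts (5 or more reads in 10 or more libraries), as did 16605 genes in all. RNA came from the medial prefrontal cortex (mPFC) of 20 male Sprague-Dawley rats, 10 given LSD at 0.16 mg/kg intraperitoneally and 10 given saline on the same schedule of every other day for 90 days. By the labels rats were 6 to 8 weeks old when injections began, while the study's methods give a somewhat greater age. Tissue was taken 3 weeks after the last one by the deposited description, or slightly later by the study's methods. No group carried a transgene or other treatment, and each library came from the mPFC of 1 rat. The comparison asks whether the messages of these receptors differed after the drug had been stopped.

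Serotonin receptors fall into families by the signal they pass on. Members of the 5-HT1 and 5-HT5 families couple to Gi/o proteins, which lower cyclic AMP and open inwardly rectifying potassium channels; the 5-HT2 receptors couple to Gq and phospholipase C; 5-HT4, 5-HT6 and 5-HT7 couple to Gs and raise cyclic AMP; and the 5-HT3 receptor is an ion channel. LSD binds most of the 5-HT1, 5-HT2, 5-HT5 and 5-HT7 receptors tightly and has little affinity for 5-HT3 and 5-HT4. In cortical pyramidal neurons the 5-HT2A receptor is excitatory and the 5-HT1A receptor is inhibitory, and 5-HT2A is the receptor on which the perceptual effects of LSD depend. Repeated activation of receptors of this kind can lower their number at the membrane, a change that transcript counts do not measure.

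None of the 9 receptors measured was called different between LSD-treated rats and controls by edgeR's quasi-likelihood test (adjusted p between 0.0627 and 0.996). Over all genes, 6.48% were called higher and 8.54% lower, 15.0% in all, at the same threshold. DESeq2 likewise called 0 of the 9, against 8.75% of its genes higher and 11.2% lower. With gene span offsets in the edgeR fit 1 of the 9 was called lower (Htr4) and 0 higher, against 3.36% of genes higher and 6.79% lower, 10.2% in all. At an unadjusted p under 0.05 the count was 2 of 9 receptors (Htr1d and Htr4), beside 30.8% of all genes tested. Receptor log2 fold changes ran from -0.67 to 0.25, 3 of them positive and 6 negative, with a median of -0.10 beside 0.00 over all genes (with scaling by total reads Htr1b also came out positive, 0 of the 9 were called, and 9.06% of genes were called higher and 5.17% lower, 14.2% in all). In every one of the 9 the LSD and saline values overlapped, and the share of all genes that did so was not counted. These are totals over a piece of tissue, in which fewer cells of a type and less RNA per cell cannot be told apart.

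Before the single receptors, 4 libraries have to be set apart. RPM here are reads scaled by TMM-normalised library size. Summed RPM of 8 genes that mark striatal projection neurons lay between 216 and 341 in 16 rats, and at 456 in LSD rat 9, 511 in saline rat 2, 612 in saline rat 9 and 644 in saline rat 8. For 6 of the 8 markers (Drd1, Drd2, Adora2a, Ppp1r1b, Rgs9 and Gpr6) the 4 libraries did not overlap the 16. The 4 were taken as those above the largest gap in the sum of these same 8 markers, so this separation is partly built in. The share of all genes that separated the 4 from the 16 was not counted. Adora2a, the adenosine receptor of indirect-pathway striatal neurons, ran from 28.7 to 44.6 RPM in the 4 and from 5.34 to 13.7 RPM in the 16. Summed oligodendrocyte markers were also high there, with a median of 6631 RPM in the 4 libraries and of 3600 RPM in the 16. Because 3 of the 4 rats were controls, the receptors are given with all 20 libraries and again without these 4, a choice made after the data were seen. In that second fit 0 of the 9 receptors were called, against 10.5% of genes higher and 10.4% lower, 20.9% in all. Cortical markers were present in all 20 libraries, with sums of 398 to 506 RPM for upper-layer and 724 to 948 RPM for deep-layer excitatory neurons. The 4 libraries lay low in these ranges. Their upper-layer sums were 398 to 425 RPM, against 422 to 506 RPM in the 16. Deep-layer sums were 724 to 802 RPM in the 4 and 725 to 948 RPM in the 16. The part of the striatal transcripts in the receptor values was not tested beyond that repeat.

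**Figure D1:**
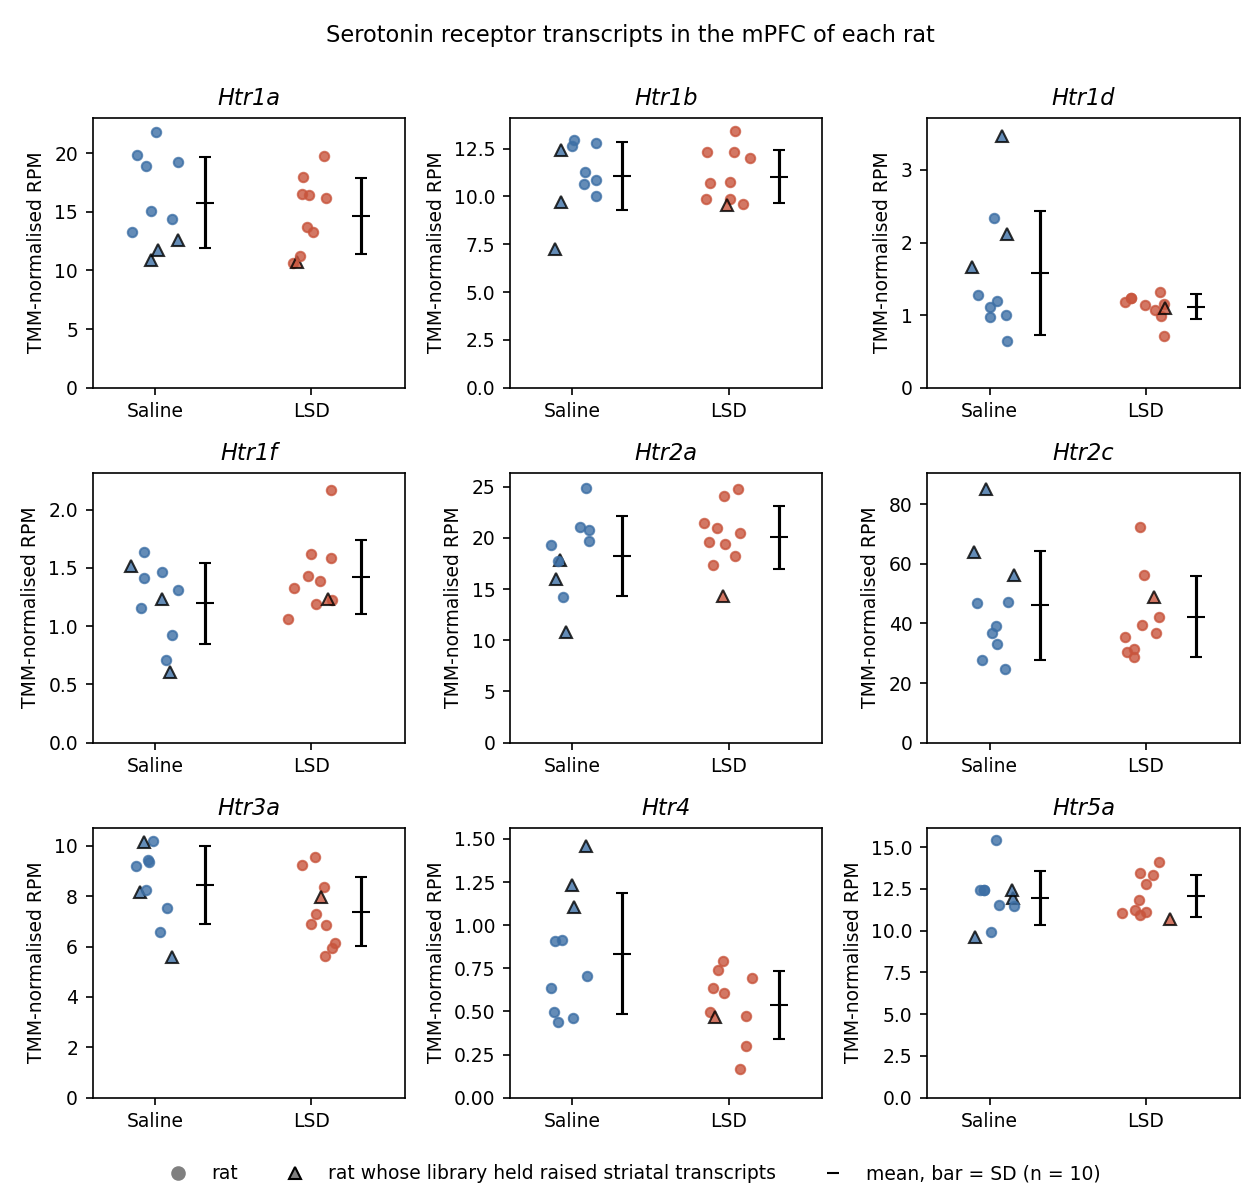
TMM-normalised RPM of the 9 measured receptors in each rat, one panel per gene with its own linear axis from 0. Circles are rats, triangles are the 4 rats whose libraries held raised striatal transcripts, and the horizontal mark with its bar is the mean and SD of 10 rats. The groups overlap in every panel, and the 3 highest saline values of Htr4 are triangles.

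Among the Gq-coupled members, Htr2a, the receptor most tied to the drug's acute effects, overlapped between the groups. It stood at 14.3, 20.01 and 24.8 RPM (lowest, median, highest) in LSD-treated rats and at 10.8, 18.6 and 24.9 RPM in controls, resting on 214 to 523 reads per library. The means were 20.1 ± 3.10 and 18.2 ± 3.93 RPM (SD, n = 10 each). In 7 of 10 LSD-treated rats the level was above the saline median, and the highest values of both groups were nearly equal, while the lowest value of each group came from a library with raised striatal transcripts (LSD rat 9 and saline rat 9). The log2 fold change was 0.14 (SE 0.116, 95% interval -0.10 to 0.38, edgeR adjusted p = 0.437), an interval that on the linear scale runs from 0.934-fold to 1.30-fold. Without the 4 libraries it was 0.08 (adjusted p = 0.609). Over all alternative settings other than single rats left out it ran from 0.0709 to 0.2578. The lowest adjusted p among these settings was 0.0718 (edgeR or DESeq2).

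Htr2c, the other Gq-coupled member and a receptor whose message is known for RNA editing, varied far more among rats. LSD-treated rats gave 28.8, 38.2 and 72.4 RPM and controls gave 24.8, 43.0 and 85.0 RPM (lowest, median, highest), from 268 to 2131 reads. The coefficient of variation over all 20 rats was 35.9%, beside a median of 11.8% among the 1238 genes within 1.2-fold of its level, which placed it at percentile 99.0 of those genes. LSD rat 7 and saline rat 2 stood at the top of their groups. The log2 fold change was -0.13 (SE 0.198, interval -0.54 to 0.28, edgeR adjusted p = 0.702). Its sign turned without the 4 libraries, to 0.19 (interval -0.19 to 0.57, adjusted p = 0.489), since those held 48.8 to 85.0 RPM against 24.8 to 72.4 RPM in the 16. It also turned without saline rat 2 alone, to 0.0138.

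Of the Gi/o-coupled members, Htr1a, the inhibitory receptor of pyramidal neurons and the autoreceptor of the raphe, stood at 10.6, 14.9 and 19.8 RPM in LSD-treated rats and at 10.9, 14.7 and 21.8 RPM in controls. The ranges almost coincided, and 5 of 10 LSD-treated rats lay above the saline median. The log2 fold change was -0.10 (SE 0.138, interval -0.39 to 0.18, edgeR adjusted p = 0.656), and -0.21 without the 4 libraries (adjusted p = 0.253). In those 4 libraries Htr1a was confined to 10.7 to 12.6 RPM, the low end of the 10.6 to 21.8 RPM seen in the 16.

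Htr1b and Htr5a were the steadiest members. Htr1b, a receptor of axon terminals that limits transmitter release, gave 9.54, 10.7 and 13.4 RPM after LSD and 7.25, 11.1 and 13.0 RPM after saline, with a log2 fold change of 0.00 (SE 0.0947, interval -0.20 to 0.19, edgeR adjusted p = 0.996). Htr5a gave 10.7, 11.6 and 14.1 RPM after LSD and 9.62, 12.2 and 15.4 RPM after saline, with a log2 fold change of 0.01 (SE 0.0778, interval -0.15 to 0.17, edgeR adjusted p = 0.946). For Htr5a the interval limits any difference in mean to between 0.901-fold and 1.13-fold. Its coefficient of variation, 11.6%, was the smallest of the 9.

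Htr1d and Htr1f, which are the targets of the triptan migraine drugs together with Htr1b, were measured on few reads. Htr1d, read 7 to 62 times per library, stood at 0.711, 1.15 and 1.32 RPM in LSD-treated rats and at 0.648, 1.24 and 3.47 RPM in controls. The difference lay in the upper tail, where 4 saline rats exceeded every LSD-treated rat and saline rat 8 was highest. The log2 fold change was -0.53 (SE 0.224, interval -0.99 to -0.06, edgeR adjusted p = 0.111), with 2 of 10 LSD-treated rats above the saline median. It shrank to -0.13 (interval -0.56 to 0.29, adjusted p = 0.675) without the 4 libraries, which held 1.10 to 3.47 RPM against 0.648 to 2.34 RPM. Htr1f gave 1.06, 1.36 and 2.17 RPM after LSD and 0.604, 1.27 and 1.64 RPM after saline, and its log2 fold change of 0.25 (SE 0.169, interval -0.10 to 0.59, edgeR adjusted p = 0.343) was the highest of the 9.

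Htr4, Htr1d and Htr2c each had their highest value in a library with raised striatal transcripts, and the upstream sequences of Htr1d and Htr2c are shown as those at hand for these genes. RefSeq (assembly GRCr8, a later build than the one used for the counts) gave promoters for 6 of the 10 receptors. The 250 bases before the annotated start are chr5:153939485-153939734 for Htr1d and chrX:115452940-115453189 for Htr2c, both on the plus strand and written 5′ to 3′. Capitals mark matches on either strand to GGGCGG (an Sp1-type GC box) or CCAAT, and TGACG (a cyclic AMP element core) and TATAAA were also searched and had no match in either. CANNTG (an E-box) was searched too and matched once in each window, and is not in capitals.
Htr1d: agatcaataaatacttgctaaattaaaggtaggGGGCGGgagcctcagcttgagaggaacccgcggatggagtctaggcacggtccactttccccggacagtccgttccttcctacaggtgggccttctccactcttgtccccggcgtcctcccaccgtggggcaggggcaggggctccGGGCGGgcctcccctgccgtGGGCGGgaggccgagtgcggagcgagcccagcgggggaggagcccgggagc
Htr2c: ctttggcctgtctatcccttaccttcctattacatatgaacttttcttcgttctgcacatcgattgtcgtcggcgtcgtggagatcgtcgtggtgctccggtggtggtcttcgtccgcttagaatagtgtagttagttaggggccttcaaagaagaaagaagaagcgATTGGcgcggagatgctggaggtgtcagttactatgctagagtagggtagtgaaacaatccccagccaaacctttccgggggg
The Htr1d window held 3 GC boxes and no CCAAT, with 66.8% G and C. The Htr2c window held 1 CCAAT, read on the minus strand, and no GC box, with 50.4% G and C. Of 33469 promoters of the same length, 30.5% held a GC box and 34.0% a CCAAT, 18.2% held TGACG, 12.9% TATAAA and 65.5% CANNTG. The matches are descriptions of the sequence and carry no measurement of binding.

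Htr3a, the subunit of the serotonin-gated channel that marks a class of cortical interneurons, gave 5.64, 7.10 and 9.57 RPM in LSD-treated rats and 5.58, 8.72 and 10.2 RPM in controls. Only 2 of 10 LSD-treated rats lay above the saline median, with the ranges overlapping almost fully. The log2 fold change was -0.19 (SE 0.116, interval -0.43 to 0.05, edgeR adjusted p = 0.272), and -0.24 without the 4 libraries (adjusted p = 0.159).

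Htr4, the Gs-coupled member, came closest to the threshold. Values were 0.168, 0.552 and 0.790 RPM after LSD and 0.438, 0.804 and 1.46 RPM after saline, from 3 to 31 reads per library. None of the 10 LSD-treated rats lay above the saline median, and LSD rat 6 was lowest. Means were 0.537 ± 0.197 and 0.836 ± 0.350 RPM, a log2 fold change of -0.67 (SE 0.243, interval -1.18 to -0.17, edgeR adjusted p = 0.0627). Leaving out saline rat 3 brought it past the threshold (-0.74, adjusted p = 0.0490). Saline rats 2, 8 and 9, with the 3 highest values, were all among the libraries with raised striatal transcripts, while LSD rat 9, the remaining one, stood at 0.4664 RPM. Without the 4 the log2 fold change was -0.28 (interval -0.82 to 0.27, adjusted p = 0.470).

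Htr7, the other Gs-coupled member, is listed at 0 in all 20 libraries. A count of 0 allows up to 3 reads, or 0.270 RPM in the smallest library and 0.00786 RPM over all libraries together, for counting error only. The neuropeptide gene Npy, which cortical interneurons express, is also listed at 0 in all 20, so an entry of 0 in this matrix was not read as absence of the transcript.

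**Figure D2:**
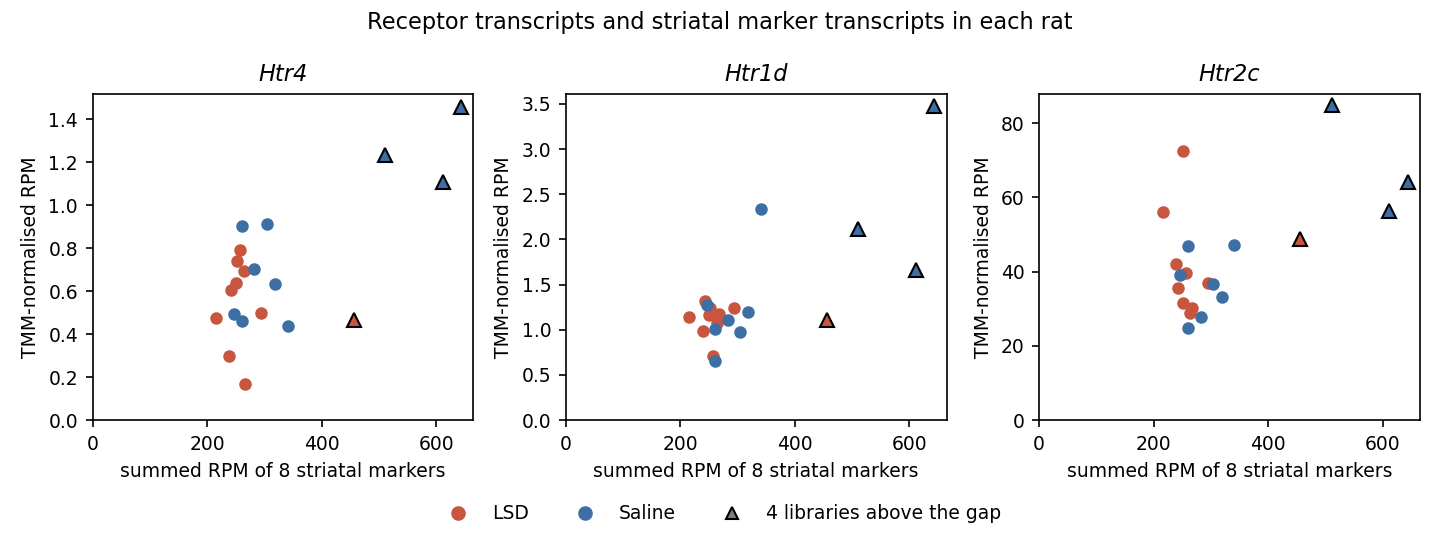
TMM-normalised RPM of Htr4, Htr1d and Htr2c (vertical, linear) against the summed RPM of 8 striatal marker genes (horizontal, linear) in each rat, coloured by group. The 4 triangles, at 456 to 644 summed RPM, include the highest value of each receptor, and LSD rat 9 is the triangle nearest the other rats.

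**Figure D3:**
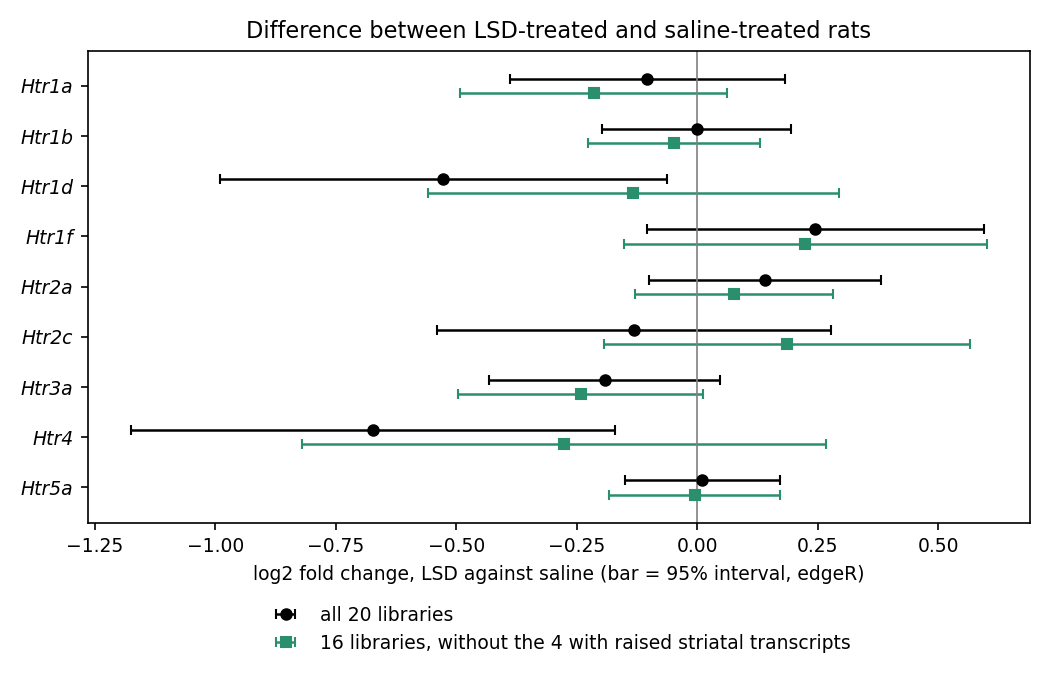
Log2 fold change of LSD-treated against saline-treated rats (horizontal axis) for the 9 measured receptors, with bars for the 95% interval from edgeR, over all 20 libraries (circles) and over the 16 left without the 4 whose striatal transcripts were raised (squares). Htr4 and Htr1d move towards 0 and Htr2c crosses it, while none of the 9 was called in either fit.

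The balance of 2 receptors within a library does not depend on how libraries are scaled. It can still depend on gene span, 68057 bases for Htr2a and 4565 for Htr1a. The slope of log2 expression on log10 gene span ran from 0.0189 to 0.0839 in LSD-treated rats and from -0.225 to 0.0308 in controls. With group means removed, its r with the log2 ratio over the 16 rats was 0.19 (adjusted permutation p = 0.604). The part of span in the group difference was not tested, as no ratio was computed with gene span offsets. Reads of Htr2a to reads of Htr1a stood at a ratio of 1.18, 1.33 and 1.84 in LSD-treated rats and of 0.918, 1.18 and 1.47 in controls (lowest, median, highest). All 10 LSD-treated rats lay above the saline median, LSD rat 6 only just (1.177 against 1.176). Both groups overlapped between the lowest LSD value and the highest saline one. The mean log2 ratio was 0.26 higher after LSD (0.47 ± 0.22 against 0.21 ± 0.26, n = 10 each, two-sided permutation test with 100000 resamples, p = 0.0297, adjusted over 2 ratios p = 0.0595). It therefore missed the threshold with all libraries, and passed it without the 4 (difference 0.30, permutation adjusted p = 0.0290).

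Leaving out single rats moved the ratio's difference between 0.21 and 0.29. The adjusted permutation p fell below the threshold without LSD rat 6 (0.0413) and without saline rats 2 (0.0327), 7 (0.0385) or 8 (0.0254), and reached 0.113 without LSD rat 7. Over the 16 rats, with group means removed, the log2 ratio went down as the summed level of upper-layer excitatory neuron markers went up (r = -0.72, permutation p = 0.00397, adjusted over 12 measures p = 0.0476; rho = -0.51, adjusted p = 0.295; r = -0.84 in LSD-treated rats and -0.49 in controls). In these 16 rats the marker sums had medians of 480 RPM in LSD-treated rats and 449 RPM in controls, and their part in the ratio was not tested. The ratio of Htr2a to Htr2c did not pass the test (log2 difference 0.25, permutation p = 0.418) and its sign turned without the 4 libraries (-0.07).

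**Figure D4:**
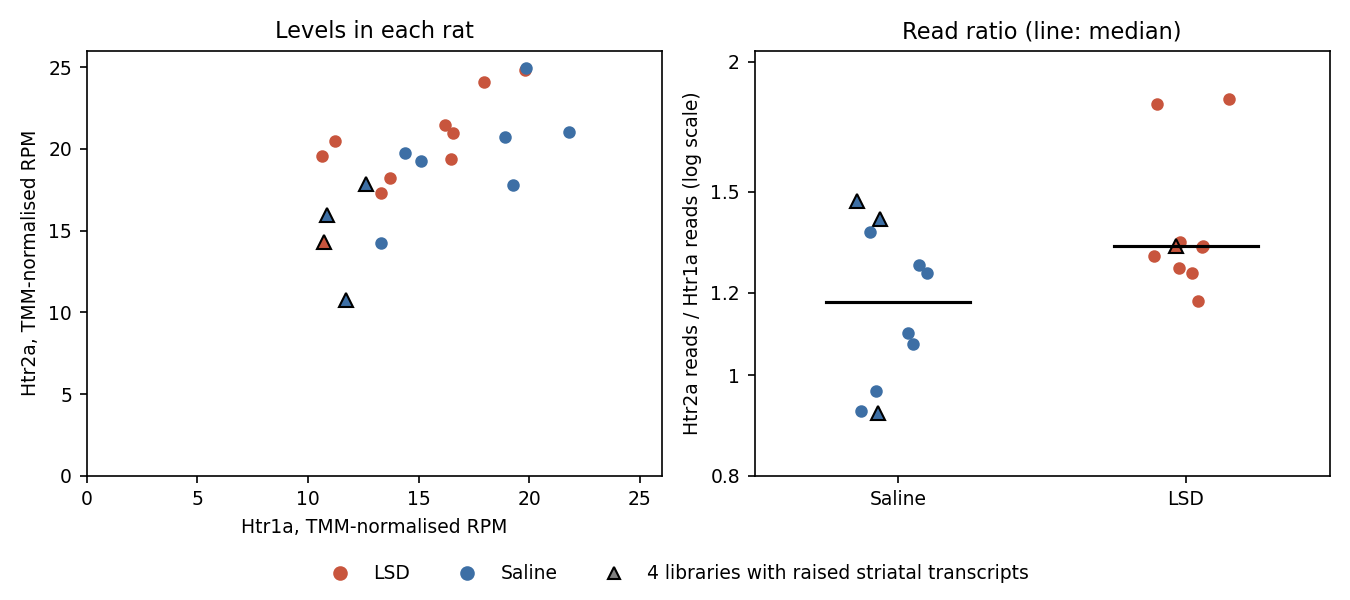
Left, TMM-normalised RPM of Htr2a against Htr1a in each rat on linear axes. Right, the ratio of their reads on a log axis, with a line at each group's median (1.33 for LSD, 1.18 for saline), where all 10 LSD-treated rats lie above the saline median.

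Across rats, receptors varied together in a few pairs. With group means removed, 4 of 36 pairs passed the permutation test after adjustment over the 36. The share of pairs of other genes that would pass was not counted, so the count is not a trait of receptors. Htr1a rose with Htr2a (r = 0.72, adjusted permutation p = 0.00666; rho = 0.75, adjusted p = 0.0119), with r of 0.73 in LSD-treated rats and 0.72 in controls, and 0.68 without the 2 rats farthest from the median of Htr1a. Htr1a fell as Htr2c rose (r = -0.73, adjusted permutation p = 0.00666; rho = -0.72, adjusted p = 0.0175), with r of -0.87 and -0.64 in the LSD and saline groups, and -0.70 without the 2 farthest rats. Both pairs thus kept their sign in each group.

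Htr2a also rose with Htr1b (r = 0.68, adjusted permutation p = 0.0305; rho = 0.58, adjusted p = 0.122) and with Htr5a (r = 0.67, adjusted permutation p = 0.0305; rho = 0.54, adjusted p = 0.154). Without the 2 farthest rats these stood at 0.44 and 0.51. Without the 4 striatal libraries no pair passed the adjustment, and the 4 values of r were 0.64 (Htr1a with Htr2a), -0.63 (Htr1a with Htr2c), 0.34 (Htr1b with Htr2a) and 0.56 (Htr2a with Htr5a).

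**Figure D5:**
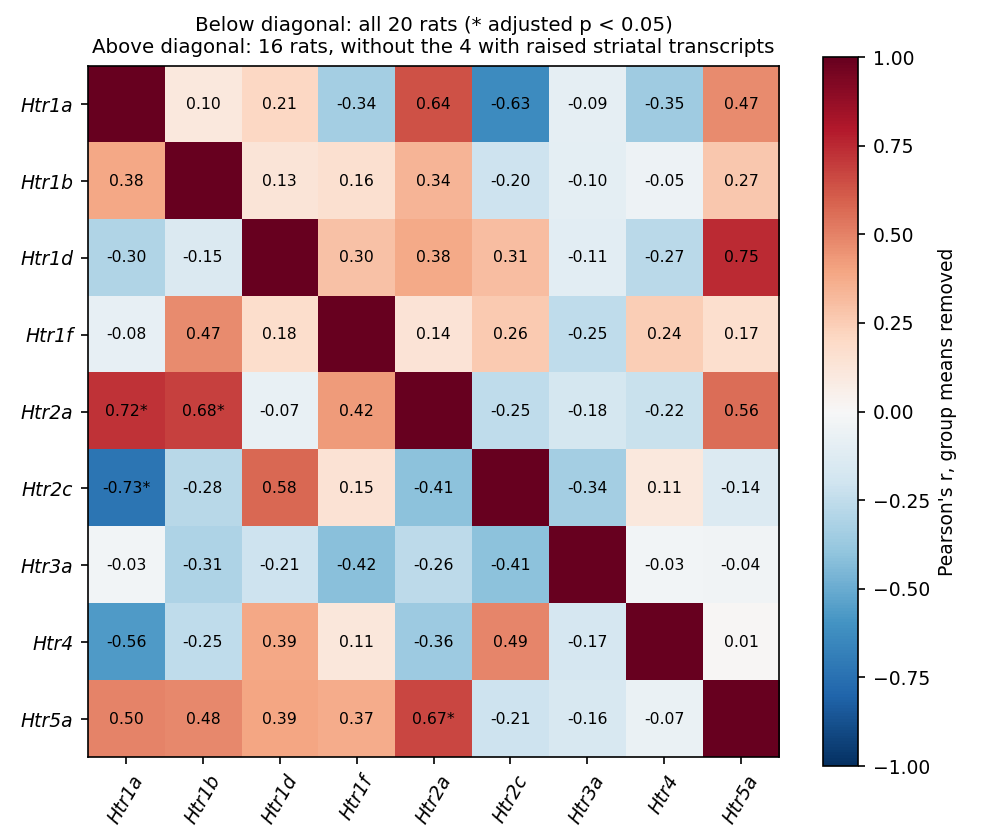
Pearson's r between pairs of the 9 receptors across rats, on log2(RPM + 1) values with group means removed, coloured from -1 (blue) to 1 (red). Values below the diagonal use all 20 rats, with an asterisk where the adjusted permutation p is under 0.05 (4 pairs), and values above it leave out the 4 rats with raised striatal transcripts.

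Receptor levels were also set beside 10 marker lists, the reads per library and the slope of expression on gene span, over the 16 rats only. Of these 108 relations 9 passed the adjusted permutation test, and the share that would pass for other genes was not counted. Htr1a followed the summed deep-layer excitatory neuron markers most closely (r = 0.88, adjusted permutation p = 0.00216; rho = 0.89, adjusted p = 0.00324; r = 0.84 without the 2 farthest rats; 0.85 in LSD-treated rats and 0.92 in controls). Htr2a followed the same markers (r = 0.77, adjusted permutation p = 0.0254; rho = 0.68, adjusted p = 0.0732; r = 0.59 without the 2 farthest rats; 0.68 and 0.84 by group). Htr2c went the other way with upper-layer markers (r = -0.81, adjusted permutation p = 0.0155; rho = -0.73, adjusted p = 0.0512; r = -0.70 without the 2 farthest; -0.90 and -0.61 by group). Which cells were in each piece of tissue was not measured.

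The remaining relations that passed had r of -0.80 (Htr1a with choroid plexus markers), 0.74 (Htr5a with striatal markers), -0.74 (Htr1a with reads on genes), 0.73 (Htr1a with upper-layer markers), -0.69 (Htr2a with astrocyte markers) and 0.69 (Htr2c with reads on genes). Of these, Htr5a with striatal markers (adjusted p = 0.0335) and Htr2a with astrocyte markers (adjusted p = 0.0335) also passed by rho. The choroid plexus sum was low, 1.48 to 13.4 RPM in the 16 rats, and only 4 of its 7 genes passed the filter on low counts. In the 16 rats summed deep-layer markers had medians of 784 RPM in LSD-treated rats and 903 RPM in controls. Reads on genes in the 16 ran from 16346629 to 25552681 in LSD-treated rats and from 11098076 to 19368354 in controls.

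The genes most like Htr2a across the 20 rats, by Pearson's r on the same centred values, were Kcns2 (r = 0.87, rho = 0.88), Nceh1 (r = 0.86, rho = 0.80) and Myt1l (r = 0.85, rho = 0.71). They were picked as the highest of 16604 genes, so the values describe these libraries and carry no test. Kcns2 encodes a modulatory potassium channel subunit, Nceh1 a cholesterol ester hydrolase and Myt1l a neuronal transcription factor. Over the 16 rats r was 0.76, 0.62 and 0.80.

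Downstream of the 5-HT2 receptors, 3 of 7 genes of the Gq and phospholipase C arm were higher in LSD-treated rats and 0 lower, beside the 6.48% and 8.54% of all genes. Plcb1, a phospholipase C that Gq activates, rose from 135 ± 20.2 to 172 ± 14.5 RPM (log2 fold change 0.35, SE 0.0770, edgeR adjusted p = 0.00807). Itpr1, the calcium channel opened by inositol trisphosphate, rose by 0.27 on the log2 scale (adjusted p = 0.0189), and Plcb4, another phospholipase C, by 0.22 (adjusted p = 0.0190). Gna11, a Gq-family alpha subunit, was not called (-0.08, adjusted p = 0.464), and the list's median was 0.09.

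Log2 fold change rose with gene span over 14924 genes (Spearman's rho 0.36, across genes, which are not independent replicates), and gene span offsets in the fit left only Plcb1 of the 3 called (0.23, adjusted p = 0.0183; Itpr1 0.16, adjusted p = 0.0754; Plcb4 0.10, adjusted p = 0.202). Without the 4 striatal libraries Plcb4 was not called (0.16, adjusted p = 0.0695). Single rats left out kept all 3 calls. The offsets were taken from each library's own values with no term for group. The slope on gene span ran from 0.0189 to 0.0839 in LSD-treated rats and from -0.225 to 0.0308 in controls. Offsets therefore also take out a group difference that goes with span, and the 2 cannot be told apart here.

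In the Gi/o arm, 2 of 8 genes were higher and 1 lower, beside 6.48% and 8.54% of all genes. Gnai2, a Gi alpha subunit, fell from 499 ± 43.4 to 422 ± 27.1 RPM (log2 fold change -0.24, SE 0.0528, edgeR adjusted p = 0.00755). Gnai1, another Gi alpha subunit, rose by 0.19 (adjusted p = 0.0335), and Kcnj3, a subunit of the potassium channels that these receptors open, by 0.25 (adjusted p = 0.0323). Gnao1 (-0.12) and Kcnj9 (-0.12), the highest-level genes not called, had adjusted p of 0.232 and 0.462, and the list's median was 0.03. The calls of Gnai1 and Kcnj3 did not hold with gene span offsets (adjusted p = 0.175 and 0.102), while Gnai2 stayed called (-0.23, adjusted p = 0.0116) and Gnao1 became so (-0.21, adjusted p = 0.0343), so that 0 of the 8 were then higher and 3 lower, beside 3.36% and 6.79% of all genes. Gnai1 was not called with 1 surrogate variable either (adjusted p = 0.0577). Gnai1 also lost its call without any one of LSD rats 3, 5, 7 and 8 or saline rats 3, 4, 5, 8 and 9 (adjusted p up to 0.0669). Kcnj3 lost its call without LSD rats 3, 4, 6 or 8 or saline rat 4 (up to 0.0586). Other settings gave more calls. Without the 4 striatal libraries 4 of the 8 were higher and 2 lower, beside 10.5% and 10.4% of all genes. Gnai1 (edgeR adjusted p = 0.0229) and Kcnj3 (0.0180) were among those higher. DESeq2 called 3 higher and 1 lower, beside 8.75% and 11.2% of its genes. The replicate block called 4 higher and 2 lower, beside 1355 and 1606 of 16605 genes.

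In the Gs arm, 3 of 8 genes were lower and 0 higher, beside 8.54% and 6.48% of all genes, with a median of -0.05. With scaling by total reads only Gnas was lower and Adcy1 was higher (0.22, adjusted p = 0.0398), beside 5.17% and 9.06% of all genes. Gnas, the Gs alpha subunit, fell by 0.21 on the log2 scale (SE 0.0505, edgeR adjusted p = 0.0111). Gnal, the olfactory and striatal Gs-type alpha subunit, fell by 0.45 (adjusted p = 0.0286), and Adcy5, a striatum-rich adenylyl cyclase, by 0.29 (adjusted p = 0.0358). Without the 4 striatal libraries Gnal was at -0.26 (adjusted p = 0.137), whereas Gnas (-0.21, adjusted p = 0.0114) and Adcy5 (-0.25, adjusted p = 0.0296) passed. In those 16 libraries 2 of the 8 striatal markers were also lower (Gpr6 and Adora2a), and their sum ran from 216 to 294 RPM in LSD-treated rats and from 246 to 341 RPM in controls, so a striatal difference moved with Adcy5 there too, and its part was not tested. Adcy1 (0.18) and Adcy2 (-0.01) were the highest-level genes not called. Gnal lost its call without LSD rats 4 or 8 or saline rats 4 or 9 (adjusted p up to 0.0568), and Adcy5 without LSD rats 2, 3, 7, 8 or 10 or saline rats 1, 3 or 4 (up to 0.0672), with no filter on low counts (0.0671) and with 1 surrogate variable (0.0633).

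Of 9 measured genes of serotonin synthesis, storage, uptake and breakdown, 0 were higher and 1 lower, beside 6.48% and 8.54% of all genes. Aldh2, the aldehyde dehydrogenase that acts after monoamine oxidase, fell from 145 ± 16.7 to 123 ± 10.8 RPM (log2 fold change -0.23, edgeR adjusted p = 0.0226), and did not pass with scaling by total reads (adjusted p = 0.0735). The monoamine oxidases Maoa (0.18, adjusted p = 0.0812) and Maob (0.13, adjusted p = 0.339) were not called, though Maoa was without the 4 libraries (0.23, adjusted p = 0.0231) and without saline rat 2 alone (adjusted p = 0.0104). Slc29a4, a low-affinity monoamine transporter named here after its values were seen, was at -0.36 (adjusted p = 0.0532), and was called lower by DESeq2 (adjusted p = 0.0312), with the 20-read filter (0.0482), with reads drawn to the smallest library (0.0447), without LSD rats 1 (0.0405) or 2 (0.0332), without saline rats 2 (0.0075) or 8 (0.0361), and without the 4 libraries (-0.49, adjusted p = 0.00637). It was not called with scaling by total reads, with gene span offsets or with any other single rat left out.

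Among 12 receptor partners and genes of desensitisation, 1 was lower and 0 higher, beside 8.54% and 6.48% of all genes. It was Grk6, a receptor kinase (-0.16, adjusted p = 0.0274), and the highest-level genes not called were Dlg4 (-0.17, adjusted p = 0.146), a scaffold of the postsynaptic density, and Arrb1 (0.06, adjusted p = 0.377), an arrestin. Without the 4 striatal libraries 4 of the 12 were lower, Grk6 and Dlg4 (-0.25, adjusted p = 0.0247) among them, beside 10.4% of all genes. Grk6 lost its call with gene span offsets (adjusted p = 0.0568), with no filter on low counts (0.0829) and without LSD rats 7 or 8 or saline rats 1, 3 or 4 (adjusted p up to 0.0601).

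Of the other serotonin receptors, Htr6, which is Gs-coupled, gave 12.7 ± 2.12 RPM after LSD and 15.3 ± 2.75 RPM after saline (log2 fold change -0.27, SE 0.106, interval -0.49 to -0.05, edgeR adjusted p = 0.0878). Only 1 of 10 LSD-treated rats lay above the saline median. It passed the threshold without LSD rat 1 (adjusted p = 0.0287) and without saline rats 2 (0.0458) or 10 (0.0261). Htr5b was at 0.38 (SE 0.449, adjusted p = 0.605), and Htr2b and Htr3b did not pass the filter.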

How the data were processed

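Poly(A)-selected RNA of 20 rats, 1 library per rat, was sequenced, and groups were taken from the sample labels. TrimGalore (trimming), HISAT2 (alignment, rn6) and HTSeq-count (reads per gene) were used by the authors, who deposited raw counts, neither normalised nor filtered. Versions, gene annotation and strand setting are not given in the sources used here. Another 5 rows without a gene name, holding 25.5% to 29.0% of the counts of a library, were left out of library sizes and tests.

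Each library held 11098076 to 25552681 reads on genes. All genes reaching 5 reads in 10 or more libraries were tested with edgeR 4.0.16 (R 4.3.3; quasi-likelihood F test, TMM scaling, Benjamini-Hochberg over 16605 genes, threshold 0.05). RPM values are TMM-normalised. Correlations used log2(RPM + 1) after subtraction of group means, and permutation tests were two-sided with 100000 resamples (scipy 1.17.1). The edgeR and correlation steps were tested on simulated data. Alternatives were DESeq2 1.42.0, other scalings and filters, the replicate number as a block, reads drawn to the smallest library, gene span offsets, 1 surrogate variable (sva 3.50.0) and leaving out each rat.

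The receptors, the gene lists and the tests were chosen with earlier results of these data known. All 10 receptors are named. From each pathway list, every gene past the threshold and the 2 highest-level genes that were not are named, and for Htr2a the 3 genes with the highest r; an item that the rule also names is not reported here. Gene spans came from RefSeq's GRCr8 and matched 89.9% of tested genes. Counts are not per length, so the naming of highest-level genes and the set of genes near a receptor's RPM rank reads, not transcript numbers, and receptors were put in no order of level.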

Additional observations from a re-analysis of the deposited data

Results flagged for a closer look

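A value was looked at again where the highest or lowest of 10 rats lay apart from the rest of its group by Dixon's criterion. Of 26 groups examined 3 met this, and chance alone flags about 1 in 20 groups. Htr1f was 2.17 RPM in LSD rat 10, with the next rat of its group at 1.62 RPM. Htr5a was 15.4 RPM in saline rat 3, with the next at 12.4 RPM. Htr5b, a receptor related to Htr5a, was 1.30 RPM in LSD rat 10, with the next at 0.678 RPM.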

How the results depend on the processing

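No receptor was called higher under any setting tried. The count called lower was 0 with all libraries and the main settings, 1 with a replicate block (Htr4, adjusted p = 0.0493), 1 with gene span offsets (Htr4, -0.78, adjusted p = 0.0474), 2 with 1 surrogate variable (Htr4, -0.81, adjusted p = 0.0202; Htr2c, -0.38, adjusted p = 0.0337), and 0 to 1 with single rats left out. The cause was not tested. With 1 surrogate variable 1319 genes were called higher and 1535 lower, of 16605 tested. Htr4 could not be tested with at least 20 reads in 10 samples, and DESeq2 gave it no adjusted p without the 4 libraries. Few reads (3 to 62 per library) limited the precision for Htr1d, Htr1f and Htr4.

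The values whose sign turned were all uncalled. Htr1b, at -0.0009, went to 0.0437 (scaling by total reads), 0.0172 (no filter), 0.0003 (20-read filter), 0.0049 (replicate block), 0.0145 (gene span offsets) and 0.0384 (surrogate variable). The surrogate variable turned Htr1a (0.0783), Gna11 (0.0117), Kcnj9 (0.0432) and Adcy2 (0.0244). Total scaling turned Adcy2 (0.0392), no filter Adcy2 (0.0094) and gene span offsets Arrb1 (-0.0099). Htr5a turned with reads drawn to the smallest library (-0.0332). Leaving out the 4 striatal libraries turned Htr5a (-0.0054), Htr2c (0.19) and the Htr2a to Htr2c ratio (-0.0746), and DESeq2 without them Htr5a (-0.0132) and Htr2c (0.18).

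Genes called higher numbered 1076, and 558 with gene span offsets, 1701 (edgeR) or 1931 (DESeq2) without the 4 libraries, and 663 (without LSD rat 8) to 1669 (without saline rat 2) with single rats left out. Genes called lower numbered 1418, and 858 with total scaling (1504 higher), 836 with no filter, and 957 to 1907 with single rats left out. The Htr2a to Htr1a difference was 0.30 without the 4 libraries. Of the 4 receptor correlations that passed, 2 passed with total scaling, 2 by Spearman's rho and 0 without the 4 libraries.

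Rats with the same number correlated at -0.26 to 0.47 (mean 0.15, 6 of 10 pairs over 0.1, 3 of 20 rats best with their own number), so the numbers were not taken to pair rats. The replicate block gave 1355 genes higher and 1606 lower, and a Htr2a to Htr1a adjusted p of 0.0820, and it also called Htr6 lower (-0.26, adjusted p = 0.0155). With single rats left out, log2 fold changes ranged from -0.1596 to -0.039 (Htr1a), -0.0568 to 0.0278 (Htr1b), -0.60 to -0.32 (Htr1d), 0.157 to 0.30 (Htr1f), 0.0759 to 0.2016 (Htr2a), -0.2513 to 0.0138 (Htr2c), -0.2495 to -0.1551 (Htr3a), -0.76 to -0.56 (Htr4), -0.0219 to 0.0571 (Htr5a) and -0.0235 to 0.0119 (Adcy2), the Htr2a to Htr1a difference from 0.2097 to 0.2935 and the Htr2a to Htr2c difference from 0.1217 to 0.36.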
